A study of Mus musculus with 39 samples.

Results

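Sertoli cells are the somatic cells of the seminiferous tubule that house and feed developing germ cells, and 10 genes that give them their identity or carry their support functions are described here in the testis of mice whose germ cells lost Kdm6a. The genes are Sox9, Wt1, Gata4, Rhox5, Cldn11, Fshr, Amhr2, Inha, Clu and Kitl. They were chosen by name, and each matched 1 of the 32285 genes of the single-cell gene list. Droplet single-cell RNA-seq of whole dissociated testis gave 1 control library (Kdm6a fl/y; Cre-) and 1 knockout library (Kdm6a fl/y; Ddx4-Cre+, here cKO). Kdm6a, also called Utx, is an X-linked gene for a demethylase of lysine 27 of histone H3, and both groups carry its floxed allele. The Cre is driven by Ddx4, a gene of germ cells, so Sertoli cells are not its target. ATAC-seq and CUT&Tag for trimethylated lysine 27 of histone H3 (H3K27me3) came from sorted cKIT+ spermatogonia of the same 2 genotypes, each with 2 control and 3 cKO libraries, beside 1 control library made with IgG. The labels give neither the age of the mice nor how many were used for each single-cell library.

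Sertoli cells arise when SOX9, under WT1 and GATA4, directs the somatic cells of the fetal gonad towards the testis pathway. In the adult they respond to follicle-stimulating hormone and androgen, seal the tubule with tight junctions, secrete proteins into its lumen and present growth factors to germ cells. Sertoli cells are large and branched, and a tubule holds many more germ cells than Sertoli cells.

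The control library held 229882646 unique molecular identifiers (UMIs, each a counted RNA molecule) and the cKO library 172368722. At a minimum of 3000 UMIs there were 11252 control barcodes, with a median of 8410.5 UMIs, and 8520 cKO barcodes, with a median of 8499. Barcodes of 300 to under 2000 UMIs, 58524 in control and 66902 in cKO, were taken as free RNA, though they may include small or broken cells. Of the barcodes of 3000 or more UMIs, 30 sequences occurred in both libraries, and none of these was gated as a Sertoli cell in both. Kdm6a had 304 UMIs in the control barcodes, or 2.29 counts per 1000000 UMIs (CPM), and 75 in the cKO barcodes, or 0.757 CPM. In early spermatocytes its level was 12.96 CPM in control and 1.24 in cKO, and in barcodes gated as Sertoli cells it had 15 UMIs in control (12.97 CPM) and 20 in cKO (17.9 CPM). Kdm6a RNA was thus lower in the early spermatocytes of the library labelled cKO and was present in the Sertoli-gated barcodes of both libraries. In spermatogonia it had 25 UMIs in control (12.4 CPM) and 8 in cKO (5.13 CPM), so it was lower there in cKO but not absent. In late spermatocytes it had 3 UMIs in each library (0.110 CPM in control and 0.166 in cKO), too few to show a difference. With 1 library for each genotype there is no replicate check and no test. The 95% intervals below cover counting error only (exact Poisson for levels, exact Clopper-Pearson for shares, exact conditional binomial for ratios).

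Taken over all barcodes of 3000 or more UMIs, each of the 10 genes had a lower level than in free RNA, in both libraries. Their summed level was 114.2 CPM against 218.5 in free RNA in control, a ratio of 0.523 (0.512 to 0.534), and 153.6 against 275.1 in cKO, a ratio of 0.558 (0.546 to 0.571). Clu, the gene of the secreted chaperone clusterin, stood at 72.0 CPM in control barcodes and 126.6 in free RNA, and at 93.5 and 145.9 in cKO. Sox9 had the smallest ratio in each library, 0.288 (0.251 to 0.330) in control and 0.265 in cKO. For Fshr in cKO the interval reached 1.79, so no difference from free RNA was detectable there at 17 and 13 UMIs. A UMI of these genes in a single barcode therefore says little by itself: 35.9% of control barcodes and 37.3% of cKO barcodes held at least 1 UMI of the 10 genes.

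Barcodes were gated as Sertoli cells by 11 other genes (Aard, Ctsl, Cst9, Cst12, Defb19, Defb36, Rhox8, Mro, Dhh, Gata1 and Trf), of which at least 8 had to be detected, so that none of the 10 genes chose the cells. This gave 116 control barcodes (1.03% of all) and 120 cKO barcodes (1.41%), with medians of 8265.5 and 7978.5 UMIs. Barcodes with 5 to 7 of the gate genes, 602 in control and 337 in cKO, were kept apart as partial Sertoli barcodes. Clu, Amhr2, Inha and the matrix gene Sparc were among the 10 genes that led the Sertoli-gated barcodes over all others in each library. The gate genes Cst12, Cst9, Defb19, Ctsl and Aard were there too, but they chose the barcodes, so their lead cannot test the label. RNA of Clu, Amhr2 and Inha was also present in barcodes gated as Leydig cells. Sox9, Wt1, Cldn11 and Rhox5, also outside the gate, had at most 3 UMIs each in the Leydig barcodes of either library. In Sertoli-gated barcodes these 4 genes were 38.2-fold to 75.7-fold higher than over all others in control, and 66.8-fold to 91.9-fold in cKO. Of the markers of other somatic cells, the Leydig list summed to 121.1 CPM in control and 168.6 in cKO, the myoid list to 99.4 and 309.4, the macrophage list to 47.6 and 11.7, the endothelial list to 18.2 and 5.38, and the stromal list to 2.59 and 23.3. Spermatid RNA was abundant in the gated barcodes: the 6 genes of the elongating spermatid list made up 58567 CPM in control and 45787 in cKO. Barcodes that also passed the gate of another class numbered 48 of 116 in control and 35 of 120 in cKO, most of them by the elongating spermatid gate (32 and 22). Results are given below without those barcodes and with spermatid genes left out of the total.

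The level of the 10 genes climbed with the number of gate genes detected. In control the summed level was 28.4 CPM in barcodes with no gate gene, 205.1 with 5, 430.6 with 6, 818.0 with 7, 3535 with 8 and 6702 with 9 to 11. In cKO the same steps gave 35.2, 238.1, 368.2, 1575, 5396 and 7961 CPM. The free RNA level, 218.5 CPM in control and 275.1 in cKO, was passed between 5 and 6 gate genes in both libraries. Rhox5, a homeobox gene of the X-linked Rhox cluster that responds to androgen in Sertoli cells, climbed earlier than the others. In control it stood at 67.2 CPM with 7 gate genes, 110.5 with 8 and 104.0 with 9 to 11, whereas Clu went from 455.1 to 2289 and 4404 CPM over the same steps. Rhox5 made up 7.15% (6.23 to 8.15) of the UMIs of the 10 genes in the partial barcodes of control and 2.10% (1.75 to 2.49) in its Sertoli-gated barcodes. In cKO the shares were 5.37% (4.45 to 6.42) and 2.87% (2.51 to 3.26). In free RNA the share of Rhox5 was 4.47% in control and 5.67% in cKO. The part of free RNA in the shares of the partial barcodes was not tested. The proportions of the 10 RNAs thus differed between partial and Sertoli-gated barcodes by more than counting error.

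**Figure D1:**
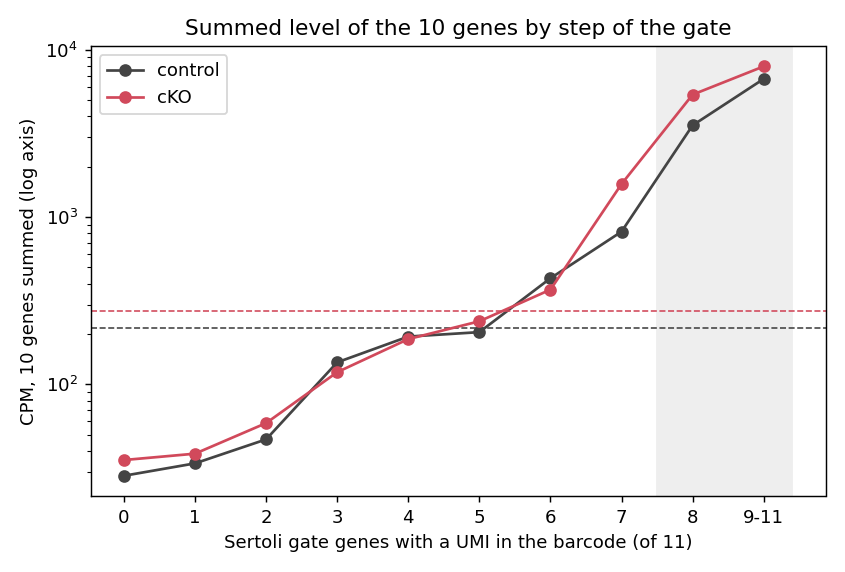
Summed level of the 10 genes in CPM (log axis) against the number of the 11 gate genes with a UMI in a barcode. Points are all barcodes of 3000 or more UMIs at that step in the control or cKO library, dashed lines are free RNA, and the grey area is the Sertoli gate. The level goes from 28.4 to 6702 CPM in control and from 35.2 to 7961 in cKO.

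In the Sertoli-gated barcodes Clu was the most abundant of the 10 RNAs and Fshr the least. As UMIs of a 3' end library, these levels count molecules and are not divided by gene length. Clu reached 3344 CPM in control and 4334 in cKO, and made up 65.4% (64.1 to 66.6) and 61.6% (60.5 to 62.7) of the UMIs of the 10 genes. Amhr2, the receptor for anti-Müllerian hormone, followed with 706.5 and 1195 CPM, and then Inha, the alpha subunit of the hormone inhibin that restrains follicle-stimulating hormone, with 390.9 and 660.9. Cldn11, a claudin of the tight junctions between Sertoli cells, had 193.7 and 260.0 CPM. The 3 transcription factor genes of early testis fate were lower: Wt1 127.1 and 148.9 CPM, Sox9 108.1 and 113.9, and Gata4 32.9 and 36.8. Kitl, the ligand for the receptor KIT on spermatogonia, had 100.3 and 72.6 CPM. Fshr, the receptor for follicle-stimulating hormone, was seen as 5 UMIs in control and 11 in cKO (4.32 and 9.86 CPM), too few for more than its presence. The order of the 3 highest genes, Clu over Amhr2 over Inha, was the same in both libraries and lay outside the counting intervals.

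Per barcode the genes were unevenly detected. Clu had a UMI in 115 of 116 control and 119 of 120 cKO Sertoli-gated barcodes, with a median of 19 and 42.5 UMIs and a maximum of 122 in each library. Amhr2 was detected in 97 and 115 of them, Inha in 86 and 111, Cldn11 in 70 and 95, Wt1 in 63 and 72, Kitl in 55 and 53, Sox9 in 52 and 64, Rhox5 in 50 and 61, Gata4 in 29 and 34, and Fshr in 5 and 10. With each barcode thinned to 3000 UMIs, Clu was found in 93.1% and 96.7%, Wt1 in 26.7% and 37.5% and Kitl in 25.9% and 19.2%. As a measure of free RNA, round spermatids, which should lack these genes, had a UMI of Clu in 21.9% of control barcodes and 28.2% of cKO barcodes, of Wt1 in 1.59% and 1.08%, and of Kitl in 0.735% and 1.20%, at medians of 13404 and 12428.5 UMIs. The shares in Sertoli-gated barcodes were thus well above the background in spite of the lower depth. At least 5 of the 10 genes were detected together in 112 control barcodes, of which 63 were Sertoli-gated, 39 partial and 8 Leydig. In cKO such barcodes numbered 137, of which 96 were Sertoli-gated, 32 partial and 6 Leydig. The summed level of the 10 genes in single Sertoli-gated barcodes had a median of 3560 CPM in control and 8695 in cKO and a maximum of 16304 and 20413, so barcodes that passed the same gate differed widely.

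Across classes the genes fell into 2 patterns. Sox9, Wt1, Cldn11 and Rhox5 had no more than 3 UMIs each in the Leydig-gated barcodes of either library (93 in control, 90 in cKO, gated by at least 5 of 8 Leydig genes). Their levels over all other barcodes together were 38.2-fold (Rhox5) to 75.7-fold (Sox9) lower than in Sertoli-gated barcodes in control, and 66.8-fold (Sox9) to 91.9-fold (Rhox5) in cKO. All 9 genes other than Fshr were past 2-fold in this comparison, as were 23.4% of the 17718 genes measured in control and 24.2% of the 16813 in cKO. Fshr, with 11 UMIs in control and 17 in cKO, fell short of 50 UMIs and was not counted. Its ratios were 94.9 (22.9 to 373) and 161 (54.6 to 530). The other pattern held Clu, Amhr2, Inha, Gata4 and Kitl, whose RNA was also present in Leydig cells, the steroid-producing cells between the tubules. Gata4 had 34.3 CPM in control Leydig barcodes against 32.9 in Sertoli-gated ones, a ratio of 0.959 (0.573 to 1.62), and Kitl had 140.7 against 100.3, a ratio of 0.713 (0.546 to 0.931). In cKO the Sertoli-over-Leydig ratio was 1.55 (0.863 to 2.91) for Gata4 and 0.767 (0.549 to 1.07) for Kitl. Clu, with 1559 CPM in Leydig barcodes of control and 1472 in cKO, was 2.14-fold (2.01 to 2.29) and 2.94-fold (2.75 to 3.15) higher in Sertoli-gated barcodes. Amhr2 was 3.93-fold (3.29 to 4.71) and 7.21-fold (5.97 to 8.77) higher there, and Inha 4.84-fold (3.73 to 6.36) and 3.44-fold (2.86 to 4.15). Fshr had 0 UMIs in the Leydig barcodes, with an upper limit of 4.51 CPM in control and 5.14 in cKO. In control that limit lies above its Sertoli-gated level of 4.32 CPM. Among classes of 50 or more barcodes, Sertoli-gated barcodes held the highest level of 8 of the 10 genes in control and of 9 in cKO.

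**Figure D2:**
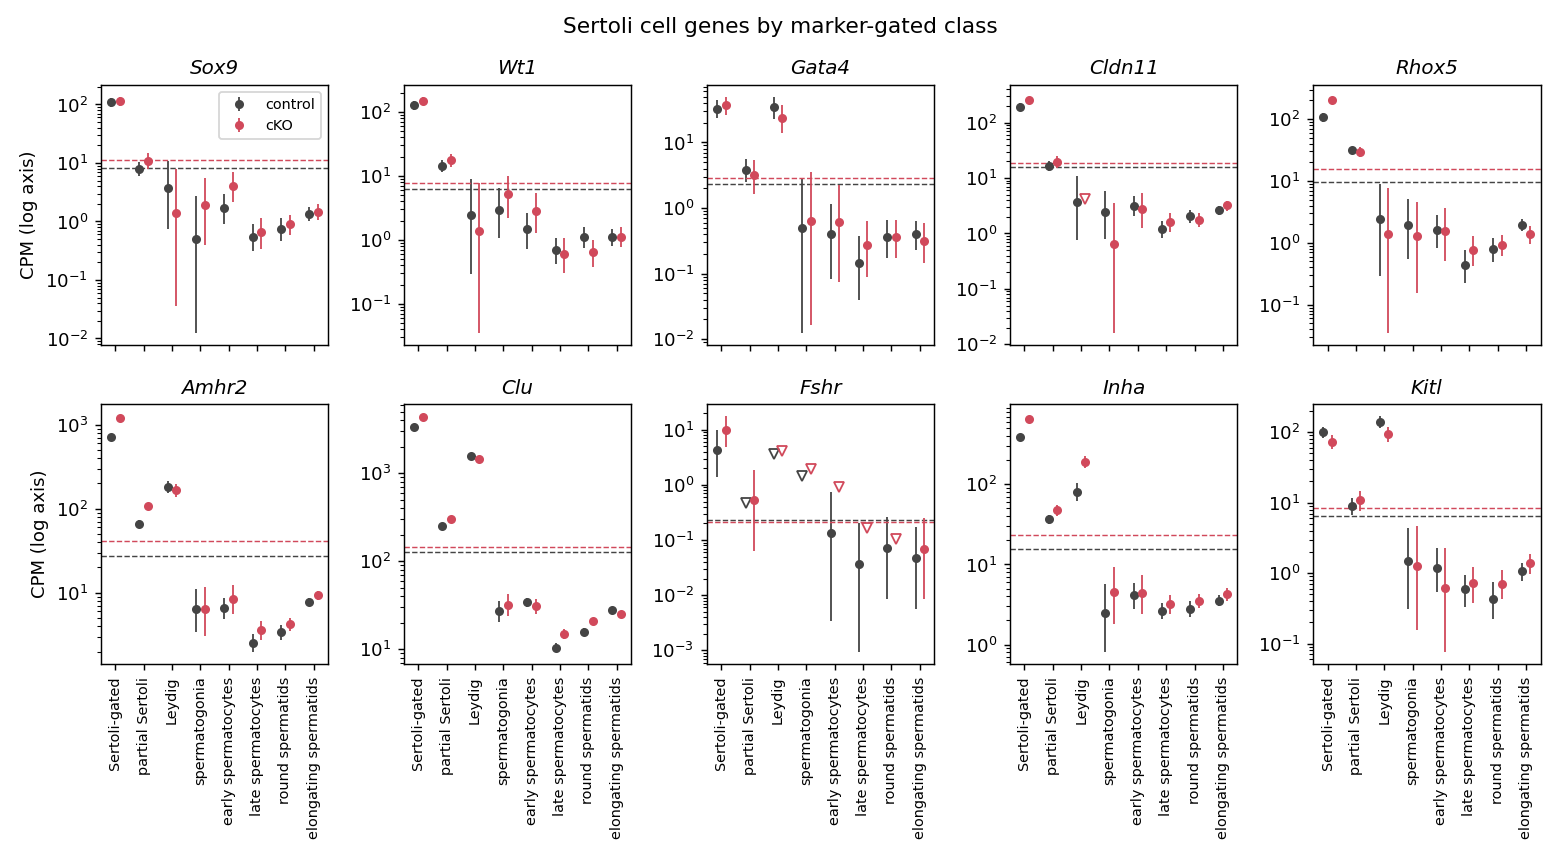
Level of each gene in CPM (log axis, 1 scale per panel) in 8 marker-gated classes, for the control and cKO libraries. Points are levels over all barcodes of a class, bars are 95% counting intervals, and dashed lines are free RNA. Open triangles mark a count of 0, drawn at the level of 3 UMIs. Sox9, Wt1, Cldn11 and Rhox5 are high in Sertoli-gated barcodes and near 0 in Leydig ones, while Clu, Amhr2, Inha, Gata4 and Kitl are also above free RNA in Leydig barcodes.

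Germ cells carried little of these RNAs. Over the 8579 control and 6497 cKO barcodes gated as germ cells, the level of each gene was 0.120 (Kitl) to 0.242 (Fshr) times its level in free RNA in control and 0.0694 (Rhox5) to 0.163 (Inha) times in cKO. Kit, the receptor for KITL, was at 95.4 CPM in the spermatogonia of control and 70.6 in those of cKO, and at 317.0 and 186.7 in Leydig barcodes. Of the hormones that act through the receptors above, Amh had 1 UMI in control and 4 in cKO in Sertoli-gated barcodes, and Fshb had none in any barcode of 3000 or more UMIs. Of the beta subunits that pair with INHA, Inhbb had 78.7 CPM in control and 88.8 in cKO and Inhba 0 UMIs in the Sertoli-gated barcodes.

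Between the genotypes, the 10 genes were on the whole at higher levels in the Sertoli-gated barcodes of cKO, and so were the genes of the gate. The summed level of the 10 genes was 5115 CPM in control and 7034 in cKO, a ratio of 1.38 (1.33 to 1.42). The 11 gate genes together went from 11751 to 16790 CPM, a ratio of 1.43 (1.40 to 1.46), and each of the 11 had a ratio above 1. In the same barcodes mitochondrial RNA was 9.54% of UMIs in control and 11.8% in cKO, and the elongating spermatid list was 0.782-fold (0.773 to 0.791). Among the 55 control and 37 cKO Sertoli-gated barcodes with at least 500 genes and at most 10% mitochondrial UMIs, the log2 ratio of the 10 genes was 0.63 (0.52 to 0.74). Counted relative to the UMIs of the gate genes, the log2 ratio of the 10 genes was -0.06 (-0.10 to -0.01), against 0.46 (0.41 to 0.51) relative to all UMIs. With the UMIs of Sertoli-gated barcodes pooled, the higher summed level of cKO is therefore not seen on the scale of the gate genes. In single barcodes the median level of the 10 genes was 3560 CPM in control and 8695 in cKO. That of the gate genes was 13792 CPM in control and 19512 in cKO. In the partial Sertoli barcodes the 10 genes were also higher in cKO (439.0 and 551.5 CPM, a ratio of 1.26, 1.19 to 1.33), while the gate genes were lower (0.932, 0.907 to 0.957). Free RNA held more of the 10 genes in cKO as well, 218.5 CPM in control and 275.1 in cKO, and in barcodes with no gate gene their ratio was 1.24 (1.14 to 1.36). The part of free RNA in the ratio of the partial Sertoli barcodes was not tested.

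No gene of the 9 with at least 50 UMIs was past 2-fold in either direction, where 2.46% of the 6784 genes tested were (49 higher, 0.722%, and 118 lower, 1.74%). Rhox5 had the largest difference, 107.2 CPM in control and 201.8 in cKO, a ratio of 1.88 (1.50 to 2.36). Amhr2 and Inha had ratios of 1.69 (1.55 to 1.85) and 1.69 (1.50 to 1.90). Cldn11 had a ratio of 1.34 (1.12 to 1.61) and Clu of 1.30 (1.24 to 1.35). For these 5 genes the counting interval lay above 1, which it did for 8.76% of all genes tested. In the partial barcodes the interval lay above 1 for Amhr2 (1.62, 1.41 to 1.86), Inha (1.30, 1.07 to 1.59) and Clu (1.20, 1.12 to 1.30), as it did for 15.4% of the 10809 genes tested there, whereas Rhox5 was at 31.4 CPM (204 UMIs) in control and 29.6 (113 UMIs) in cKO, a ratio of 0.944 (0.744 to 1.19). In free RNA Amhr2 was at 27.3 CPM in control and 41.3 in cKO, Inha at 15.6 and 23.1, Clu at 126.6 and 145.9, and Rhox5 at 9.76 and 15.6. In Sertoli-gated barcodes Rhox5, Amhr2 and Inha were also higher relative to gate gene UMIs, and had log2 ratios above 0 under all 9 alternative settings tried (0.40 to 1.24 for Rhox5, 0.24 to 1.23 for Amhr2, 0.24 to 1.17 for Inha), whereas Clu and Cldn11 turned to -0.14 and -0.09 on that scale. Kitl went the other way, from 100.3 CPM in control to 72.6 in cKO, a ratio of 0.724 (0.538 to 0.970), and it was the 1 gene of the 10 whose interval lay below 1 (12.8% of all genes). With 7 gate genes sufficing, the log2 ratio of Kitl was 0.16 (-0.22 to 0.54), so its direction depends on that choice of gate. This was the 1 of the 9 alternative settings in which it was above 0, over a range of -0.98 to 0.16. With the gene and mitochondrial filter its interval included 0 (-0.13, -1.09 to 0.80). It also did without the barcodes above the median share of elongating spermatid RNA (-0.47, -1.01 to 0.047). The interval of Cldn11 included 0 too with the gene and mitochondrial filter (0.075, -0.54 to 0.68). For Sox9 (1.05, 0.816 to 1.36), Wt1 (1.17, 0.932 to 1.47), Gata4 (1.12, 0.702 to 1.79) and Fshr (2.28, 0.731 to 8.38) the interval included 1. With 7 gate genes sufficing it did not for Sox9 (log2 ratio 0.72, 0.38 to 1.05), Wt1 (0.63, 0.33 to 0.92) and Fshr (1.87, 0.27 to 3.73), all higher in cKO, while relative to gate gene UMIs Sox9 was lower in cKO (-0.44, -0.81 to -0.07), so the values of Sox9 and Wt1 also rest on the gate and the scale.

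**Figure D3:**
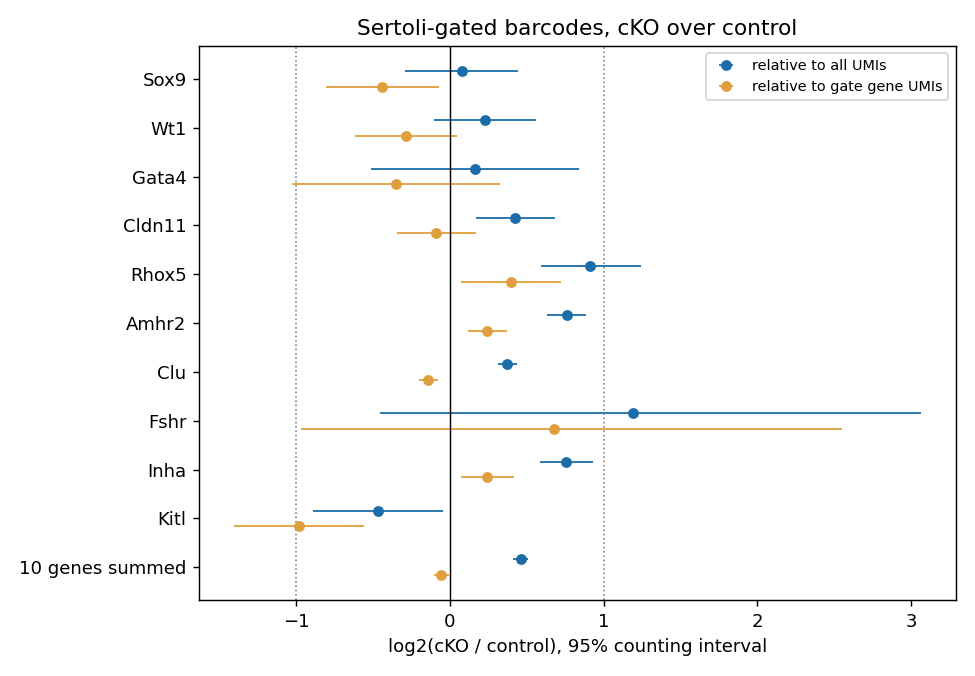
Log2 ratio of cKO over control in Sertoli-gated barcodes (116 control, 120 cKO) for each gene and for their sum. Points are ratios of levels with 95% counting intervals, relative to all UMIs or to the UMIs of the 11 gate genes, and dotted lines mark 2-fold. The sum is at 0.46 on the first scale and -0.06 on the second.

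The excess in cKO was uneven over the steps of the gate. In barcodes with 8 gate genes (65 control, 50 cKO) the summed level was 3535 and 5396 CPM, a ratio of 1.53 (1.44 to 1.62), and with 9 to 11 (51 and 70 barcodes) 6702 and 7961, a ratio of 1.19 (1.14 to 1.24). With 7 gate genes, just outside the gate (189 and 93 barcodes), the ratio was 1.93 (1.78 to 2.08), and with 6 it was 0.855 (0.756 to 0.965). Without the Sertoli-gated barcodes that also passed another gate, the log2 ratio of the sum was 0.37 (0.31 to 0.43) over 68 and 85 barcodes. Without those above the median share of elongating spermatid RNA it was 0.29 (0.23 to 0.35). With the elongating and round spermatid lists left out of the total UMIs of each barcode it was 0.44 (0.39 to 0.49).

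In Leydig barcodes the summed level was 2007 CPM in control and 1953 in cKO, a ratio of 0.973 (0.905 to 1.05). Of the 4 genes with at least 50 UMIs there (Clu, Amhr2, Inha and Kitl), the interval of Inha lay above 1, as it did for 16.9% of the 4602 genes tested, and that of Kitl below 1, as for 12.3%. Inha was at 80.8 CPM (66 UMIs) in control and 192.2 (138 UMIs) in cKO, a ratio of 2.38 (1.76 to 3.24). It was the 1 of the 4 genes that was past 2-fold, as were 3.74% of all genes tested there in the higher direction, 2.41% in the lower and 6.15% in either. Inha was detected in 42 of 93 control and 56 of 90 cKO Leydig barcodes, and 1 cKO barcode held 23 of its UMIs while the maximum in control was 4. The Sertoli gate genes, led there by Defb19, summed to 2914 and 2857 CPM in the same barcodes, a ratio of 0.980 (0.924 to 1.04). With at least 500 genes and at most 10% mitochondrial UMIs required, the log2 ratio of Inha was 0.76 (0.20 to 1.32) instead of 1.25. Kitl was lower in cKO in Leydig barcodes, 140.7 and 94.7 CPM, a ratio of 0.673 (0.491 to 0.916).

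Other genes of Sertoli cells were read from a list of 30 that holds none of the 10. Of the 21 with at least 50 UMIs in the Sertoli-gated barcodes, 18 had a ratio above 1, as did 3103 of all 6784 genes. Relative to gate gene UMIs 16 of these 18 had a log2 ratio below 0. The count of genes above 1 was 10 of 19 with 1 gate gene more and 12 of 18 without the barcodes above the median elongating share. On the main setting 2 of the 21 were past 2-fold higher (0.722% of all genes) and none past 2-fold lower (1.74%). Their median log2 ratio was 0.20, that of the 9 genes 0.37 and that of all genes -0.04. Cldn3, another claudin of the tight junctions, went from 33.7 CPM in control to 91.5 in cKO, a ratio of 2.71 (1.86 to 4.03), with a UMI in 26 and 50 barcodes. No single barcode held more than 5 UMIs of Cldn3, and its log2 ratio was above 0 under all 9 alternative settings, from 0.92 to 2.11. Espn, an actin-bundling protein of the junctions with spermatids, was higher as well (1.27, 1.15 to 1.41), as were the protease inhibitor Eppin (1.35, 1.09 to 1.68), the intermediate filament gene Vim (1.21, 1.06 to 1.39) and the fatty acid binding protein Fabp5 (1.33, 1.03 to 1.72), and all 4 had ratios below 1 relative to gate gene UMIs. The transcription factor genes Sox8, Nr5a1, Nr0b1, Dmrt1 and Etv5 had ratios of 0.947 (Etv5) to 1.24 (Nr0b1) with intervals that all included 1. Tjp1, a scaffold of tight junctions, was at 105.5 and 85.2 CPM (0.807, 0.611 to 1.06). Its log2 ratio of -0.31 became -0.88 (-1.37 to -0.40) with 1 gate gene more, -0.90 (-1.47 to -0.36) without the barcodes above the median elongating share, -0.82 (-1.23 to -0.42) relative to gate gene UMIs and -0.43 (-0.85 to -0.010) at a minimum of 5000 UMIs, and 0.067 (-0.28 to 0.41) with 1 gate gene fewer. In the Sertoli-gated barcodes Amh, Gdnf, Cldn5 and Zfpm2 had 5 or fewer UMIs over both libraries together, and Inhba, Cxcl12 and Krt18 had none there.

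Other genes were compared with the summed level of the 10 genes over the 20 points of 10 classes in 2 libraries. Only genes outside the 10 and the gate were ranked, with at least 50 UMIs over both libraries in Sertoli-gated barcodes. The closest in log2(CPM + 1) were Ldhb (Pearson r 0.987), Gstm7 (0.985), Tspan17 (0.983), Ppm1m (0.981) and Comtd1 (0.977). The points share libraries and depth, and the correlations are a description. Among the 10 genes themselves Amhr2 and Inha had the closest profiles (r 0.985) and Rhox5 and Kitl the least close (r 0.491), which are the genes with the 2 patterns over Leydig barcodes. The lowest ratios of cKO over control among all 6784 genes in Sertoli-gated barcodes were those of Hist1h2aa (0.0943), Gm8251 (0.187) and Fam71b (0.189), and the highest those of Acta2 (26.3), Naglu (3.80) and S100a1 (3.11). For Acta2, 64 of the 76 UMIs in cKO lay in 1 barcode. Gm8251 had 187 of its 405 control UMIs and Fam71b 62 of 132 in 1 barcode, while Naglu, a lysosomal enzyme, had at most 4 UMIs in any barcode and was found in 12 control and 38 cKO barcodes.

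The chromatin of the 10 genes was read in cKIT+ spermatogonia. In the barcodes gated as spermatogonia (166 in control, 145 in cKO) each gene had a lower level than in free RNA. For Wt1, Gata4 and Fshr the interval reached the free RNA level in both libraries. Wt1 in cKO was at 5.13 CPM (2.22 to 10.1) against 7.71 in free RNA. H3K27me3 is the mark of Polycomb repression that KDM6A removes, and ATAC-seq reads out accessible DNA. Start sites from RefSeq (GRCm38.p6, the mm10 sequence) were at hand for Cldn11, Rhox5, Amhr2, Fshr, Inha and Kitl, and for all 10 the span of the gene with 1 kb on each side was used as well. An H3K27me3 region of the authors' lists lay within 1 kb of the start of Cldn11 (chromosome 3, start site 31149920) and Inha (chromosome 1, 75507609) in all 5 libraries. Of all 26794 genes with a start, 6.17% had this. None lay within 1 kb of the starts of Rhox5, Amhr2, Fshr and Kitl in any library, as for 81.5% of all genes.

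Over the gene spans, 5 of the 10 genes had an H3K27me3 region in all 5 libraries: Sox9, Wt1, Gata4, Cldn11 and Inha, where 12.2% of 21631 genes did. Sox9 (chromosome 11, 112782210 to 112787757) was covered over 56.4% and 68.9% of its span in the control libraries and 31.0%, 49.4% and 64.0% in cKO. Inha was covered over 78.4% and 74.8% in control and 47.2%, 39.3% and 86.8% in cKO. Cldn11 was covered over 24.9% and 39.4% in control and 13.6%, 24.2% and 33.7% in cKO. Wt1 was covered over 18.4% and 30.3% against 11.8%, 17.1% and 27.9%, and Gata4 over 31.5% and 47.8% against 13.3%, 21.9% and 31.1%. The ranges of the genotypes overlapped for Sox9, Wt1, Cldn11 and Inha. For Gata4 the lowest control value, 31.5%, lay just above the highest cKO value, 31.1%. The share of all gene spans that separate in this way was not counted, so nothing is read from this. The deposited lists held 14545 and 18494 regions in control and 11118, 14584 and 15368 in cKO, and the part of list size in these coverages was not tested. Clu had a region in 3 of 5 libraries and Kitl in 3 of 5, outside its start, while Rhox5, Amhr2 and Fshr had none in any library, as for 72.9% of all genes. In single H3K27me3 libraries 14.5% to 23.2% of all gene spans had a region. The IgG library had a region over 1 of the 10 genes, Gata4, covering 0.421% of it, and over 3.41% of all gene spans.

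Accessible chromatin was called at the start of Kitl in 4 of 5 ATAC-seq libraries, both of control and cKO 2 and cKO 3, in a peak of 654 to 1210 bases. No other start of the 6 had a peak in control. Of all 26794 genes with a start, 37.2% and 46.7% had a peak there in the 2 control libraries. In the cKO libraries the shares were 28.8%, 35.4% and 49.8%. In cKO 3, which had the longest list (40497 peaks against 14635 to 33250), a peak also lay within 1 kb of the starts of Cldn11, Amhr2 and Inha. No gene had a peak at its start in all 5 libraries, where 26.4% of all genes did, and over the span Gata4 alone of the 10 did, where 40.6% of all genes did. Kitl therefore combined a peak at its start in most libraries with no H3K27me3 region there, and Cldn11 and Inha had the reverse. The share of all genes with each combination was not counted.

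**Figure D4:**
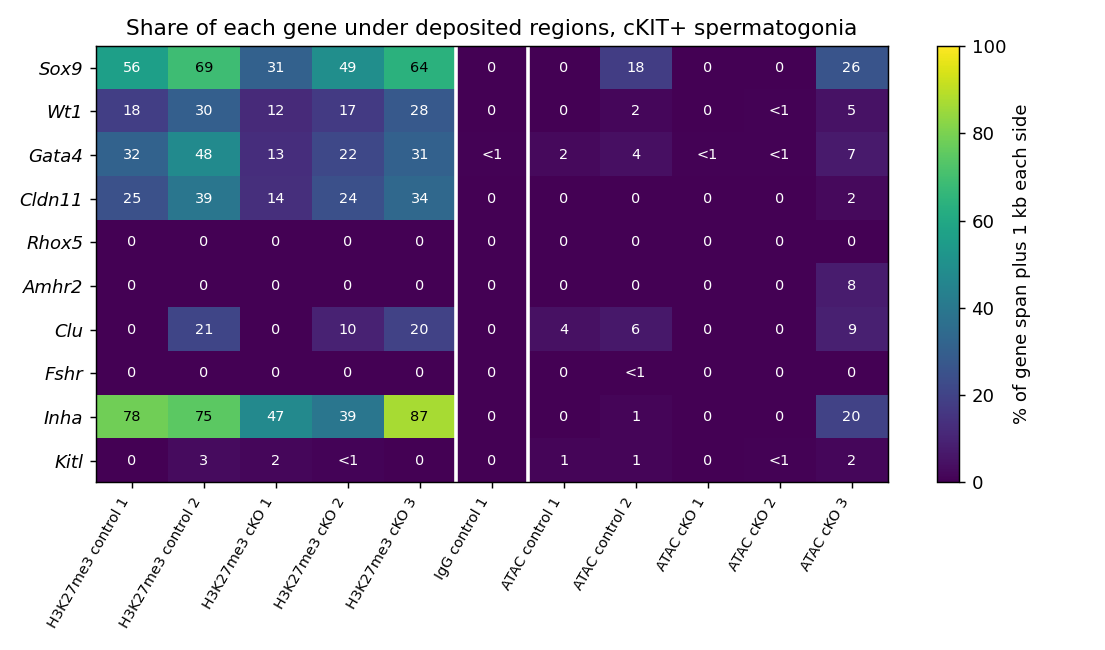
Share of each gene span, with 1 kb on each side, that lay under deposited H3K27me3, IgG or ATAC-seq regions of cKIT+ spermatogonia, in percent, for each library. Sox9, Wt1, Gata4, Cldn11 and Inha are covered by H3K27me3 in all 5 libraries, with 31.0% to 68.9% for Sox9, and Rhox5, Amhr2 and Fshr in none.

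The 250 bases before the start are shown for the 3 genes whose starts carried a mark or a peak in most libraries, 5' to 3' on the strand of the gene, with each CpG in capitals. Cldn11 (chr3:31149670-31149919, plus strand) had 19 CpGs, Inha (chr1:75507359-75507608, plus strand) 4 and Kitl (chr10:100015571-100015820, plus strand) 23, where the median of 32851 RefSeq promoters was 6 and the upper quartile 16. The start site used for Inha (75507609) lies inside its RefSeq gene span, which begins at 75507077. All 250 bases shown for Inha are thus within the gene, and their CpG count does not describe the sequence before it. For Kitl (start site 100015821, span from 100015615) the stretch is partly within the gene. CpG-rich Cldn11 carried H3K27me3 at its start, and CpG-rich Kitl did not.
Cldn11: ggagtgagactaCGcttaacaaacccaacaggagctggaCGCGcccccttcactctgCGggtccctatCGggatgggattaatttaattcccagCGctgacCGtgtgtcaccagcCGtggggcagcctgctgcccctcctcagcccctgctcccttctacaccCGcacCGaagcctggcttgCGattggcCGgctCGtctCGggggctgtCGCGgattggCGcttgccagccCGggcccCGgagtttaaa
Inha: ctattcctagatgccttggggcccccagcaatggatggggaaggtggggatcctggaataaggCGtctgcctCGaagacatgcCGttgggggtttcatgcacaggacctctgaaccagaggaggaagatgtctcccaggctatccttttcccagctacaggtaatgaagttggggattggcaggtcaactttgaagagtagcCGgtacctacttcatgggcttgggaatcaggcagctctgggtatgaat
Kitl: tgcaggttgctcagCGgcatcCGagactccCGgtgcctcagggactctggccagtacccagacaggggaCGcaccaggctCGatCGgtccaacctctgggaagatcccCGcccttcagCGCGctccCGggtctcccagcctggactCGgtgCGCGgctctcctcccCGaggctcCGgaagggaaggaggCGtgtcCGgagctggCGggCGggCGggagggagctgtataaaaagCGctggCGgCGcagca

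Amhr2 (chr15:102445117-102445366, plus strand), Fshr (chr17:89200676-89200925, minus strand) and Rhox5 (chrX:37754358-37754607, plus strand), whose starts were free of H3K27me3 in all 5 libraries, had 5, 4 and 4 CpGs. Their 250 bases are shown with matches to short motifs in capitals, searched on both strands for factors known in Sertoli cells. CAAGGTCA, for the orphan receptor NR5A1, was found in Amhr2 at -232 from the start (1.33% of promoters hold it). TGATAA, for GATA factors, was found in Amhr2 at -199 on the minus strand (7.94% of promoters). CACGTG, an E-box, was found in Fshr at -61 (6.02%), and AACAAT, for SOX factors, in Rhox5 at -227 on the minus strand (9.42%). AGATAA, TGACGTCA and TGCGTCA were found in none of the 6 stretches searched. The stretches of Inha and Amhr2 lie inside their RefSeq gene spans, which begin at 75507077 and 102445002. Bases before those spans were not searched, and the Amhr2 positions above count from the start site used, 102445367. These are matches of letters, and no binding was measured.
Amhr2: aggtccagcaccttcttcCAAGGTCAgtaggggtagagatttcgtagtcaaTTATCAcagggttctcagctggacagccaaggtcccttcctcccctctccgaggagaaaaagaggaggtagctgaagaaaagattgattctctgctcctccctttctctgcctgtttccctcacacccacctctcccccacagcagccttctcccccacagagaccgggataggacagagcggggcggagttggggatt
Fshr: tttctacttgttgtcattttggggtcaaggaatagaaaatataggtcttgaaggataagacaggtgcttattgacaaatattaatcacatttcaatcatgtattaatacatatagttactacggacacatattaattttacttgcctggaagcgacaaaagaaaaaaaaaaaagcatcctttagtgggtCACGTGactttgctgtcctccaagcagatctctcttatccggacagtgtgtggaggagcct
Rhox5: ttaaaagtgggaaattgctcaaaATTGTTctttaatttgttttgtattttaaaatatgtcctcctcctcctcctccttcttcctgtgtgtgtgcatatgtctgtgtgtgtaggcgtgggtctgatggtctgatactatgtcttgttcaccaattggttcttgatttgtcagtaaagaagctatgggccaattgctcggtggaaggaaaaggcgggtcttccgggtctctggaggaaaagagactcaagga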

How the data were processed

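UMI counts came from the deposited unfiltered single-cell matrices, made with Cell Ranger 4 per the file headers; Seurat 4.1.0 and the build mm10 are named in the submitters' processing notes. The deposited ATAC-seq lists give a −log10 q for each peak and the deposited CUT&Tag lists a summed signal for each region; MACS2 and SEACR are named in the submitters' processing notes, with no version. The 10 genes, the marker lists and the tests were chosen with earlier results of these data known, and the numbers of genes each gate asks for were set after seeing the data.

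Barcodes of 3000 or more UMIs were classed in a fixed order by marker genes with a UMI: Sertoli (8 of 11), partial Sertoli (5 to 7), Leydig (5 of 8), other somatic cells, elongating spermatids (8% of UMIs in 6 genes), spermatogonia (3), early spermatocytes (5), round spermatids (6) and late spermatocytes (5), and the rest had no class. No doublet caller was run, and barcodes passing several gates were counted instead. Levels are counts per 1000000 UMIs of a class (CPM). Ratios need 50 UMIs over both libraries to count as tested, and past 2-fold stands in for a call. Intervals are at 95% (scipy 1.17.1), and a count of 0 allows up to 3 UMIs. Interval, gate and overlap steps were tested on simulated data. Named genes are the 10, the gate, the list of 30 other Sertoli genes, Kdm6a, Kit, Fshb and Amh, the 5 most correlated genes and the 3 highest and lowest ratios; Inhba and Inhbb are on the list of 30, and 1 gene of that list is counted but not reported here. Regions were matched to RefSeq genes of GRCm38.p6, where 6 of the 10 had a promoter entry. The bulk RNA-seq files give values per transcript ID and were not used here.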

Additional observations from a re-analysis of the deposited data

How the results depend on the processing

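The direction of the ratio of the 10 genes summed over cells and free RNA held under every alternative. It was 0.573 in control and 0.591 in cKO at a minimum of 2000 UMIs, 0.471 and 0.526 at 5000, and 0.321 and 0.269 with at least 500 genes and at most 10% mitochondrial UMIs. With free RNA from barcodes of 300 to under 1000 UMIs it was 0.539 and 0.571, and of under 100 UMIs 0.730 and 0.873. Single genes did not all keep the direction against barcodes of under 100 UMIs. Wt1 was then higher in cells in control (3.00 against 2.78 CPM) and in cKO (3.69 against 2.10). In cKO so were Amhr2 (24.8 against 18.0), Inha (14.3 against 11.8) and Fshr (0.172 against 0). The log2 ratio of cKO over control of the summed genes in Sertoli-gated barcodes, 0.46, stayed above 0 under 8 of 9 alternatives. It was 0.63 with the gene and mitochondrial filter, 0.25 with 1 gate gene more, 0.92 with 1 gate gene fewer, 0.29 without the barcodes above the median elongating share, 0.37 without those that passed another gate, and -0.055 relative to gate gene UMIs, the last 2 alternatives having been chosen after seeing the data. On that last scale, on which the gate genes together are fixed, 5 of the 9 genes with a ratio above 1 changed sign, and so did 16 of 18 other Sertoli genes. Among those whose interval had lain above 1 these were Clu (-0.14), Cldn11 (-0.090), Espn (-0.17), Eppin (-0.083), Vim (-0.23) and Fabp5 (-0.10), and among the rest Sox9 (-0.44), Gja1 (-0.37) and Tubb3 (-0.38) came to lie below 0 with their whole interval. Kitl changed sign (0.16) with 1 gate gene fewer, where the barcodes numbered 305 and 213, and the cause was not tested. Of the other Sertoli genes, 1 was past 2-fold with 1 gate gene more and 0 with the gene and mitochondrial filter, where fewer genes (8) reached 50 UMIs. Sertoli-gated barcodes held the highest level of 7 to 10 of the 10 genes in every setting.

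Leaving out each chromatin library in turn gave 2 to 2 genes with H3K27me3 at the start in every library, 5 to 5 over the span, and for ATAC-seq peaks 0 to 1 at the start and 1 to 2 over the span, the higher values coming without ATAC-seq library cKO 1. Stricter lists left 0 genes with an ATAC-seq peak over the span in every library, against 1. The genes of the start and span counts for H3K27me3 kept their numbers with a window of 2.5 kb and with stricter lists. No paired analysis was possible because each genotype had 1 single-cell library and the results on chromatin come from no test. The bulk testis comparison and its alternatives (DESeq2, no filter, the replicate block and leaving out libraries) were not run.

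With 1 library for each genotype, no difference here can be told apart from a difference between 2 testis preparations. The Sertoli-gated barcodes number 116 and 120 and hold other cells' RNA, and Fshr, with 5 and 11 UMIs, was below what this depth can compare.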
